A study of Mus musculus with 2 samples.

Results

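The cells described here are Ccr2-positive C1q-low monocytes of 4T1 tumours, 306 of the 12018 cells measured. They were chosen by counts of molecules in each cell: at least 2 of Ccr2, at least 2 of Cd14 and Lyz2 together, at most 2 of C1qa and C1qb together, none of Flt3, none of the Cd3 chain genes, at most 1 of Cd79a and Cd79b together, and S100a8 under 10% of the cell's molecules. The requirement for Ccr2 left 799 cells, that for Cd14 or Lyz2 681, the limit on C1q 494, the absence of Flt3 444, the absence of Cd3 362, the limit on Cd79 357 and the limit on S100a8 306. The anti-PD-1 pool gave 142 of them under tag 3 and 49 under tag 4, and the no-anti-PD-1 pool gave 71 under tag 1 and 44 under tag 2.

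4T1 is a mammary carcinoma line of BALB/c mice, and all mice, female and aged 8 weeks, carried it in the mammary fat pad for 7 days, to tumours of about 70 mm3, before treatment. The study compared 4 arms of 6 mice, and 2 tumours per arm went to single cells: anti-PD-1 antibody, anti-PD-1 with anti-Siglec-E antibody, anti-Siglec-E antibody alone, and isotype control. Cells of the anti-PD-1 and combination arms went on 1 cartridge, called the anti-PD-1 pool here, under tags 3 and 4, and cells of the anti-Siglec-E and isotype arms went on the other, called the no-anti-PD-1 pool, under tags 1 and 2. Which tag holds which arm is not given in the sources used here, so no value belongs to a single arm. EPCAM-positive and EPCAM-negative cells were mixed at 1 to 4, which sets the share of tumour cells among all cells. Transcripts were counted with a targeted panel of immune genes, of which 396 were shared by the 4 tags. With 1 cartridge per pool there is no replicate, treatment and cartridge cannot be told apart, and no difference was tested; intervals cover counting error alone.

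Monocytes leave the bone marrow through the chemokine receptor CCR2, which binds CCL2, and enter inflamed tissue and tumours from the blood. There they can differentiate into macrophages, losing CCR2 and gaining complement C1q and scavenger receptors, or take up features of dendritic cells with class II antigen presentation. PD-1 (Pdcd1) is an inhibitory receptor best known on T cells, its ligand PD-L1 (Cd274) is made by many myeloid cells, and Siglec-E (Siglece) is an inhibitory receptor for sialic acids on mouse myeloid cells.

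Monocytes made up 2.15% of all cells in tag 3 (exact Clopper-Pearson 95% interval 1.81 to 2.52%) and 3.37% in tag 4 (2.51 to 4.43%) of the anti-PD-1 pool. They made up 2.92% in tag 1 (2.29 to 3.67%) and 2.90% in tag 2 (2.12 to 3.88%) of the no-anti-PD-1 pool. The equal-weight means were 2.76% in the anti-PD-1 pool and 2.91% in the no-anti-PD-1 pool, a difference of -0.154 percentage points that is smaller than the gap between tags 3 and 4. A wider myeloid gate kept the Cd14 and Lyz2 requirement and the limits on Cd3, Cd79 and S100a8, and set none on Flt3. Of its cells the monocytes took 7.94 and 12.1% in tags 3 and 4, against 8.72 and 9.44% in tags 1 and 2. With that denominator the mean was higher by 0.921 points in the anti-PD-1 pool, so the sign of the difference depends on the denominator. Cells of this gate without a Flt3 molecule and with at least 5 C1q molecules are called C1q-positive macrophages here. They numbered 93 and 16 in tags 3 and 4, against 62 and 23 in tags 1 and 2. There were 1.53 and 3.06 monocytes per macrophage in tags 3 and 4, and 1.15 and 1.91 in tags 1 and 2, and the pools overlapped.

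**Figure D1:**
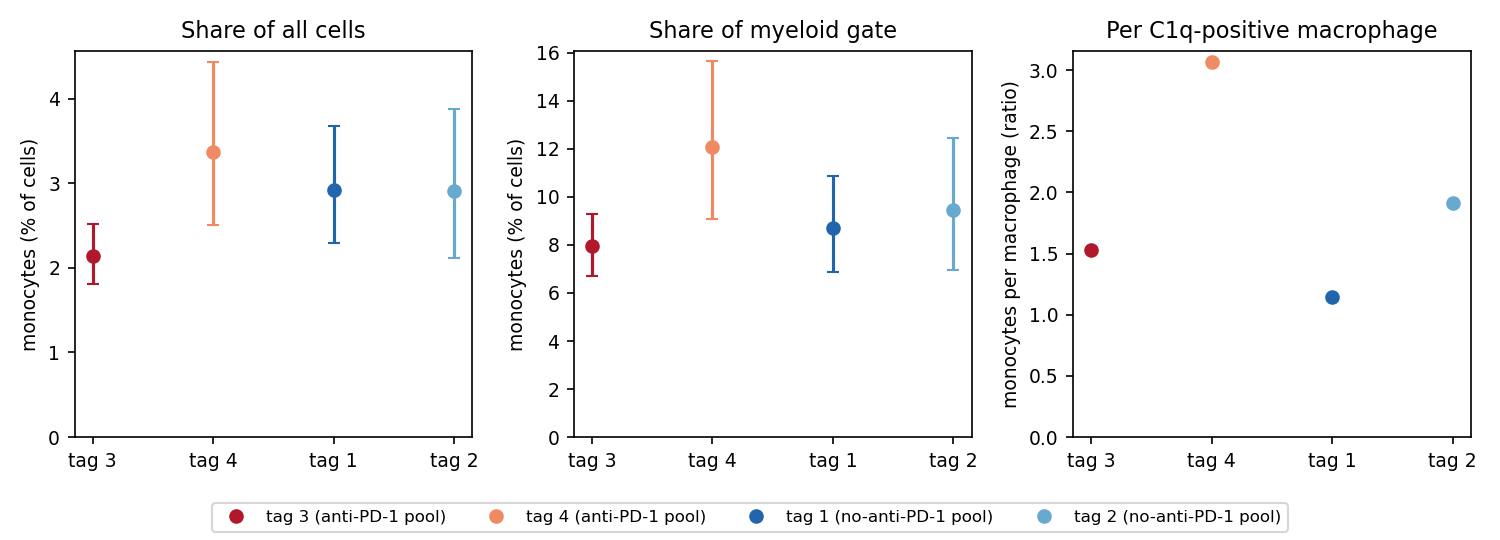
Share of monocytes among all cells (left) and among the myeloid gate (middle), in percent of cells with exact Clopper-Pearson 95% intervals, and monocytes per C1q-positive macrophage (right), for tags 3 and 4 of the anti-PD-1 pool and tags 1 and 2 of the no-anti-PD-1 pool. The shares of all cells lie between 2.15 and 3.37%, and tags 3 and 4 lie on either side of tags 1 and 2.

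The median monocyte held 2057.5 molecules in tag 3 and 2476 in tag 4, against 2528 in tag 1 and 2281 in tag 2. Macrophages were deeper, with medians of 5573 and 4074 molecules in tags 3 and 4 and 4870.5 and 3741 in tags 1 and 2. Levels below are therefore counts per 1000000 panel molecules (CPM) after the molecules of all cells of a kind were summed within a tag, and they are compared within a gene, not between genes. The reference used to count tag 1 was not that of the other tags, so 72 further genes have values in tags 3, 4 and 2 only. Cell numbers are not unique across tables: tags 1 and 3 shared 16 cell indices, tags 2 and 3 also 16, tags 2 and 4 shared 3 and tags 1 and 4 shared 2, and 3 monocytes had an index that also occurs in another tag.

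The genes of the rule describe the gate and are no finding. Ccr2 averaged 3109 and 3334 CPM in monocytes of tags 3 and 4 and 3533 and 4031 CPM in those of tags 1 and 2. Cd14, the lipopolysaccharide co-receptor, stood at 31137, 33650, 30999 and 27702 CPM in tags 3, 4, 1 and 2, and Lyz2, lysozyme, at 59886, 74892, 55414 and 62654 CPM. C1qb, a subunit of complement C1q, stood at 2.81 and 0 CPM in monocytes of tags 3 and 4 and 19.9 and 42.3 CPM in those of tags 1 and 2, against 9470, 8971, 10849 and 9922 CPM in macrophages of tags 3, 4, 1 and 2. S100a8, an alarmin that dominates neutrophils, reached 11580, 6007, 14363 and 12135 CPM in monocytes and 375729, 381890, 321058 and 313784 CPM in cells above the S100a8 limit.

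Values on both sides of the thresholds are given as a description, since Ccr2, Lyz2 and C1q are part of the rule. Cells that met every other requirement but held 1 Ccr2 molecule numbered 40 and 12 in tags 3 and 4 and 16 and 8 in tags 1 and 2, and their Lyz2 stood at 16478, 10439, 13832 and 6792 CPM in tags 3, 4, 1 and 2. Members with exactly 2 Ccr2 molecules, just inside, numbered 28 and 10 in tags 3 and 4 and 10 and 3 in tags 1 and 2, with Lyz2 at 34739, 99687, 31840 and 13191 CPM. The value in tag 4 rests largely on 1 cell with 16564 molecules and Lyz2 at 160167 CPM. At least 6 Ccr2 molecules were found in 75, 30, 44 and 31 members of tags 3, 4, 1 and 2. On the C1q side the gate sits in a sparse zone: 139 and 48 members of tags 3 and 4 and 67 and 40 of tags 1 and 2 held no C1q molecule, while only 2 cells in each of tags 3 and 4, and none in tags 1 and 2, fell just outside with 3 or 4 molecules.

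The name was checked against the 5 markers given for it, of which Ccr2, Cd14 and Lyz2 are part of the rule. F13a1, coagulation factor XIII A, stood at 1152, 1116, 643 and 837 CPM in monocytes of tags 3, 4, 1 and 2, against 324, 775, 479 and 281 CPM in macrophages of those tags. It was higher in monocytes in each tag, though by under 2-fold in tags 4 and 1. After each cell was thinned to 500 molecules, 32.8, 32.7, 20 and 22.7% of monocytes in tags 3, 4, 1 and 2 held an F13a1 molecule, against 0.7, 1.4, 4.3 and 0.7% of Cd3-positive cells, a type that should lack it. Without thinning the shares were 54.9, 49.0, 45.1 and 43.2% of monocytes and 3.3, 5.2, 6.1 and 6.9% of Cd3-positive cells, whose median depths were 1774, 1320.5, 3030.5 and 2449 molecules. Clec10a, a lectin of dendritic cells and some macrophages, went against the name: it stood at 242, 164, 150 and 59.2 CPM in monocytes of tags 3, 4, 1 and 2, against 271, 163, 428 and 302 CPM in macrophages. Cells with at least 2 Flt3 molecules and at least 10 of H2-Aa and H2-Eb1 together are called dendritic cells here. They met the same limits on C1q, Cd3, Cd79 and S100a8 as the monocytes. Their Clec10a stood at 1371, 961, 1246 and 2141 CPM in tags 3, 4, 1 and 2. Of the 2 markers outside the rule, F13a1 thus went with the name and Clec10a did not. A list of further monocyte genes gave mixed values. Of its 8 measured members, 2 were at least 2-fold higher than in macrophages in each tag and none was lower. Its median log2 ratio was -0.36, under the 0.26 of all measured genes.

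Some members carried molecules of other cells. Molecules of the NK cell list (11 genes on the panel) summed to 4755, 119, 74.8 and 1665 CPM in tags 3, 4, 1 and 2, and 7 members, 4 in tag 3 and 3 in tag 2, held 98.2 and 92.8% of the NK and T cell molecules of their tags. The T cell list (10 genes) summed to between 24.9 and 118 CPM, the B cell list (8 genes) to between 138 and 164 CPM, the dendritic list (5 genes, with Il12b and Ccr9 at 0 in all 4 tags) to between 42.3 and 211 CPM, and the stromal list (3 genes) to between 33.8 and 130 CPM. Mast cell and basophil genes (6 on the panel) reached 566 CPM in tag 2, nearly all in 1 cell, and between 19.9 and 81.5 CPM elsewhere. The neutrophil list (5 genes) summed to 1073, 1831, 2950 and 1048 CPM in tags 3, 4, 1 and 2. Lgals1 and Lmna, which 4T1 cells express along with many other cells, summed to 26123, 15281, 33331 and 16580 CPM, and in 9 members Lgals1 alone made up at least 8% of molecules. Epcam, Msln and Cdh1, genes of epithelial and tumour cells with no value in tag 1, summed to at least 5 molecules in 17, 3 and 5 members of tags 3, 4 and 2. Leaving out 16 members with NK, T, mast cell, basophil or Lgals1 contents left 290, of which 19 were among these 25 with epithelial markers. The total counts of called genes over the shared genes were also made without the 16 and, separately, without the 25. The latter kept all members of tag 1, where the epithelial genes have no value. Called genes named here that lost their call in either are given beside their values. Counts of the further genes of tags 3, 4 and 2 and of class II shares were made on all members only.

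Against the C1q-positive macrophages of the same tumours the monocytes had more transcripts of Chil3, Thbs1, Itga4 and Clec4e and fewer of ficolin A, Cd72 and osteopontin. A gene was called where the ratio of CPM was at least 2 in each of the 4 tags. Of 280 genes measured with at least 30 molecules, and outside the 12 genes of the rule, 16 (5.71%) were higher in monocytes and 12 (4.29%) were lower. The median log2 ratio of all measured genes was 0.26, and weighted trimmed scaling (TMM) shifted it by -0.23 and gave 10 genes higher and 15 lower, with all 12 of the lower genes among the 15. Without tag 4, whose macrophages numbered 16, 25 genes were higher and 18 were lower. Without the members holding markers of other cells 16 were higher and 13 lower, and without those holding epithelial markers 16 and 14. The cells were separated by C1q, so these ratios describe the gate's neighbours and are not tests. Cells without a Ccr2 molecule that met every other requirement also lay above macrophages in each tag for Clec4e and Thbs1. In tags 3, 4, 1 and 2 their Clec4e stood at 6421, 3809, 3999 and 5974 CPM. Their Thbs1 stood at 1335, 2140, 2524 and 2097 CPM, and their Chil3 at 41.6, 30.3, 48.5 and 69.2 CPM.

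Chil3, a chitinase-like protein of inflammatory monocytes and neutrophils, stood at 1590, 1853, 1101 and 1454 CPM in monocytes of tags 3, 4, 1 and 2, against 191, 326, 19.7 and 121 CPM in macrophages, a mean log2 ratio of 3.74. The lowest monocyte value lay above the highest macrophage value. Chil3 also reaches cells that should lack it: after thinning, 32.1, 24.5, 24.3 and 45.5% of monocytes in tags 3, 4, 1 and 2 held a molecule of it, against 14.3, 12.4, 12.8 and 14.6% of Cd3-positive cells.

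Of 13 measured chemokine receptors and adhesion molecules, 3 were higher in monocytes and none was lower, with a median log2 ratio of 0.79. Itga4 and Cxcr4 were among them. Itga4, the alpha chain of the integrin VLA-4, stood at 435, 528, 573 and 718 CPM in monocytes of tags 3, 4, 1 and 2 and 97.2, 109, 192 and 70.4 CPM in macrophages (mean log2 ratio 2.34). Cxcr4, the receptor for CXCL12, stood at 3075, 3684, 1949 and 2755 CPM in monocytes and 873, 544, 736 and 1136 CPM in macrophages (1.82); it was no longer called under TMM scaling. Ccr1, an inflammatory chemokine receptor, at 5143, 4414, 5253 and 5400 CPM in monocytes and 2722, 3208, 2729 and 2342 CPM in macrophages, stayed under 2-fold in at least 1 tag, as did the integrin gene Itgam.

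Pattern recognition genes gave 2 of 10 higher and none lower, with a median of 0.81. Clec4e, or Mincle, a receptor for mycobacterial glycolipids and for products of dead cells, stood at 7676, 8865, 8173 and 7935 CPM in monocytes of tags 3, 4, 1 and 2 and 1529, 1835, 2534 and 995 CPM in macrophages (mean log2 ratio 2.32). Its partner Clec4d stood at 4550, 4176, 5387 and 5011 CPM in monocytes and 1716, 1971, 2309 and 1548 CPM in macrophages (1.35), and was lost under TMM scaling. Clec4d was also lost with at least 3 Ccr2 molecules, with a limit of no C1q and without the 5% of members with most molecules. Against macrophages with at least 10 C1q molecules it was lost too. Clec4e and Clec4d were nearly level over the tags within monocytes. The toll-like receptor gene Tlr2 stood at 5407, 6944, 5278 and 6279 CPM in monocytes and 2781, 3711, 3208 and 2895 CPM in macrophages, and was not called.

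Thbs1 and Il12a, whose products act on other cells, were also higher. Thbs1, thrombospondin 1, stood at 2657, 2918, 6369 and 2299 CPM in monocytes of tags 3, 4, 1 and 2 and 587, 177, 654 and 533 CPM in macrophages (mean log2 ratio 2.90). Il12a, the p35 subunit of IL-12, was low but steady at 89.9, 96.8, 89.7 and 84.5 CPM in monocytes, from 32, 13, 18 and 10 molecules, and stood at 5.50, 0, 0 and 10.1 CPM in macrophages. F5, coagulation factor V (3.22), Tnfsf14, the cytokine LIGHT (1.96), and Bin2, a membrane-bending protein of leukocytes (1.61), were also higher. With each cell counted equally, Itga4, Il12a and Bin2 were no longer called. Cd44, Prdm1, Il18, Tnfrsf1b and Elane were also called, of which the first 4 lost the call under TMM scaling; Elane, the neutrophil elastase gene, stood at 261, 1310, 39.9 and 338 CPM in monocytes and at 0 in macrophages of all 4 tags, and 1 cell held 54.6% of its molecules.

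Among the genes lower in monocytes, Fcna, Cd72 and Spp1 belong to the lists of macrophage and suppressive genes. Fcna, the lectin ficolin A of macrophages, stood at 11.2, 81.9, 24.9 and 42.3 CPM in monocytes of tags 3, 4, 1 and 2, against 667, 299.02, 1032 and 1739 CPM in macrophages (mean log2 ratio -4.62). Cd72, an inhibitory receptor of B cells that macrophages here carried too, stood at 84.3, 14.9, 633 and 262 CPM in monocytes and 1395, 1182, 1945 and 2342 CPM in macrophages (-3.79). Spp1, osteopontin, stood at 12667, 6639, 7256 and 7521 CPM in monocytes and 34007, 33871, 23330 and 28449 CPM in macrophages (-1.84). All 3 were lower in each tag with no overlap between the cell types. Of 9 measured macrophage, complement and scavenger genes 2 were lower and none was higher, with a median of -1.11; the lipid receptor gene Trem2, at -1.41, was not called because tag 4 stayed under 2-fold.

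Blnk and Tnfsf13b, which serve B cell signalling and survival, were also lower. Blnk, a signalling adaptor, stood at 30.9, 14.9, 64.8 and 25.4 CPM in monocytes of tags 3, 4, 1 and 2 and 321, 190, 254 and 332 CPM in macrophages (mean log2 ratio -3.18), and Tnfsf13b, the survival factor BAFF, had a mean log2 ratio of -3.50. Tgfb3, a TGF-beta cytokine (-2.86), H2-DMb2, which loads class II molecules (-2.52), the lysosomal tetraspanin Cd63 (-1.84), the cell cycle gene Ccnd2 (-1.83, not called without the members holding markers of other cells), the sialic acid receptor Cd22 (-1.83, under the minimum of 30 molecules without tag 3) and the chemokine Cxcl16 (-1.31) followed. The 12th gene, Ada, had 35.1% of its molecules in 1 cell. The matrix protease gene Mmp12, at 3500, 10576, 5078 and 6211 CPM in monocytes and 22119, 20116, 21730 and 38602 CPM in macrophages, and arginase Arg1, at 18439, 11291, 19895 and 12330 CPM and 29102, 22304, 28497 and 36552 CPM in macrophages, were lower in monocytes in each tag but stayed under the 2-fold requirement in at least 1. For Mmp12 this was tag 4, where 1 cell with 16564 molecules had 66530 CPM and the 48 members without a C1q molecule, all the others of that tag, had 2708 CPM. Mmp12 was called lower with a limit of no C1q, without the 5% of members with most molecules and under TMM scaling.

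Other lists split little. Of 6 measured class II genes 1 was lower (median -0.99), of 12 inflammatory cytokines 2 were higher and 1 lower (0.49), of 12 chemokines 1 was lower (0.17), and of 12 immediate early and NF-kappaB genes none was called (0.18). None of 5 interferon response genes (0.41), of 6 costimulation and checkpoint genes (0.29) and of 5 iron, stress and hypoxia genes (0.02) was called. Cd274, which encodes PD-L1, stood at 5011, 5017, 4914 and 4994 CPM in monocytes of tags 3, 4, 1 and 2, and at 2603, 2881, 2898 and 3438 CPM in macrophages, higher in monocytes in each tag by under 2-fold. It was level over the 4 tags of monocytes. Pdcd1 gave 1 molecule in all members, in tag 2, so PD-1 transcript was at or below the floor of 3 molecules in each tag, which is 8.43 CPM in tag 3 and 25.4 CPM in tag 2.

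**Figure D2:**
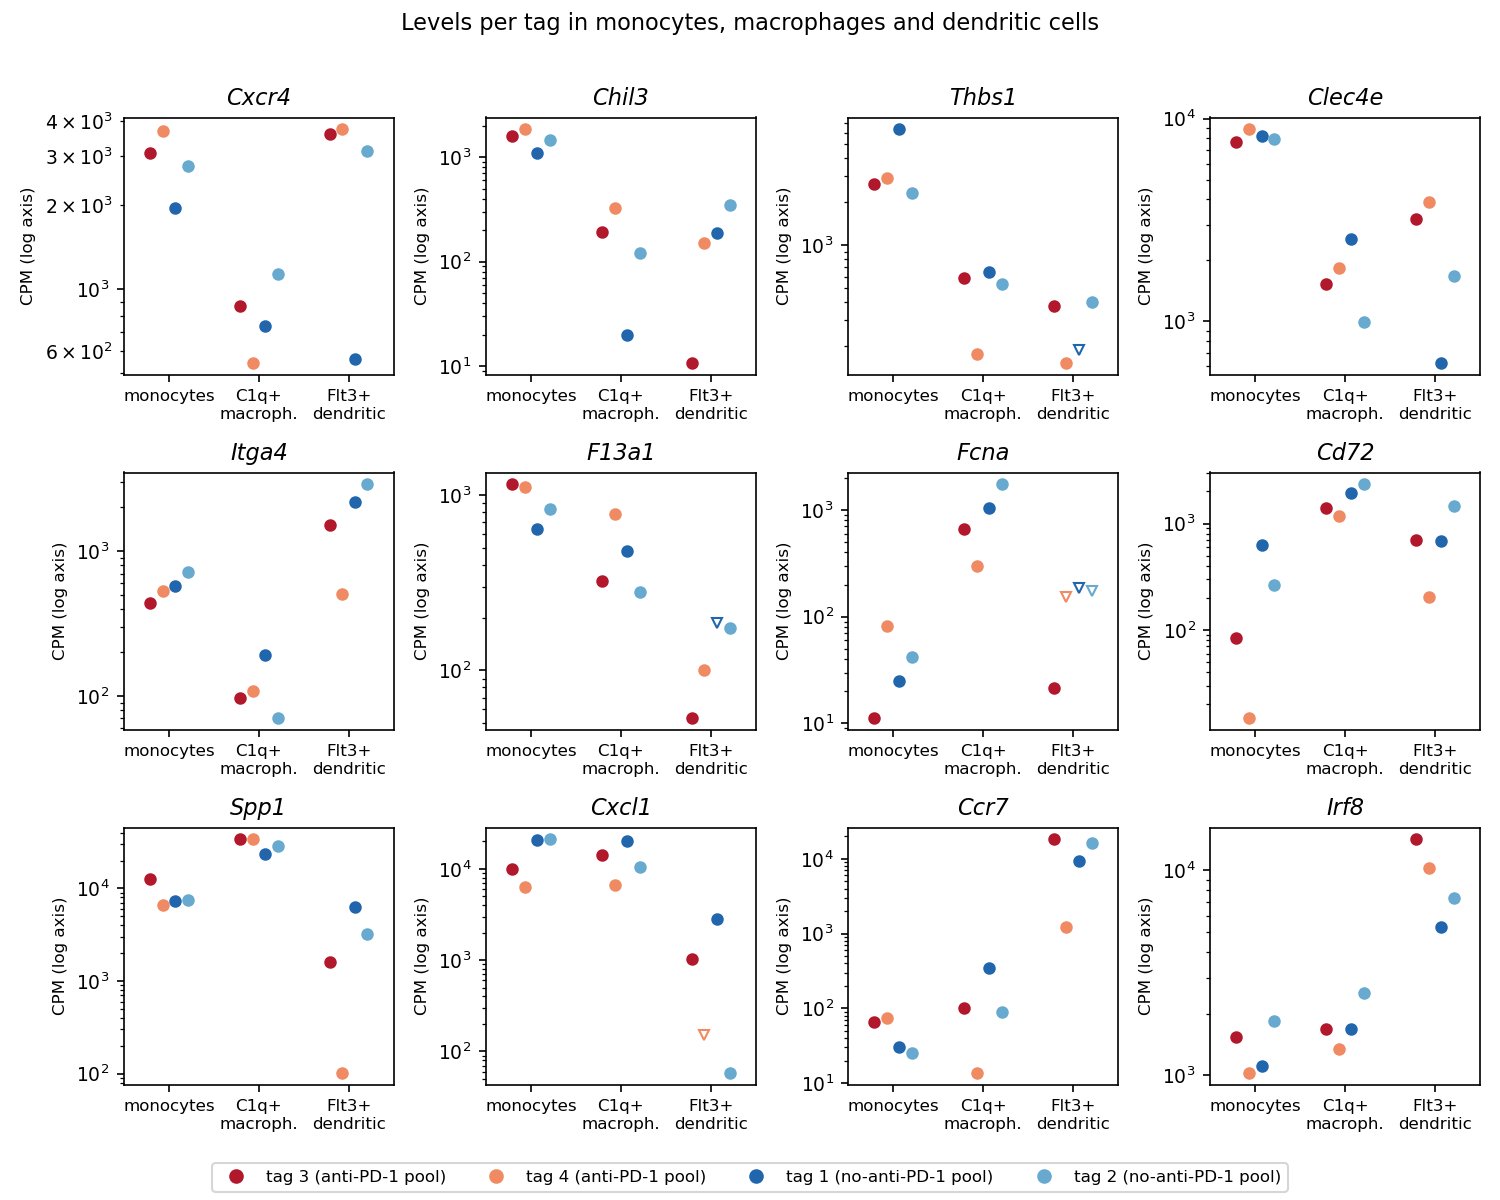
Levels of 12 genes in CPM (log axes) in monocytes, C1q-positive macrophages and Flt3-positive dendritic cells, each point 1 tag, with an open triangle at the floor of 3 molecules where a tag had none. Chil3, Cxcr4, Clec4e and Itga4 lie higher in monocytes than in macrophages, Fcna, Cd72 and Spp1 lie lower, and Ccr7 and Irf8 are highest in dendritic cells.

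The further panel genes, counted in tags 3, 4 and 2 only, gave 5 of 57 higher (8.77%) and 6 of 57 lower (10.5%) in monocytes than in macrophages in all 3 tags. S100a4, a calcium-binding protein of motile cells, stood at 18818 and 15117 CPM in monocytes of tags 3 and 4 and 17197 CPM in tag 2, against 4187, 2338 and 2684 CPM in macrophages. Ms4a4c, a membrane protein, stood at 1691, 2136 and 2316 CPM in monocytes of tags 3, 4 and 2 and 372, 530 and 653 CPM in macrophages. Slfn4, at 3342, 2218 and 1665 CPM against 323, 408 and 352 CPM, Csf3r, the receptor for G-CSF, and Gpr18 were the other genes higher in monocytes. Csf3r and Slfn4 were also abundant in the S100a8-high neutrophils, and the part of neutrophil molecules in these levels was not tested. Mrc1, the mannose receptor, stood at 660, 313 and 676 CPM in monocytes of tags 3, 4 and 2, against 2915, 2283 and 3910 CPM in macrophages, and Siglec1, the macrophage sialoadhesin, at 5.62, 22.3 and 16.9 CPM against 119, 163 and 211 CPM. Mgl2, Ptgs1, Bhlhe41 and Ch25h were lower too. These counts were not repeated without the members holding markers of other cells or epithelial markers.

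Siglece, the target of the anti-Siglec-E antibody, was among these further genes, so tag 1 has no value. It stood at 177 and 104 CPM in monocytes of tags 3 and 4, from 63 and 14 molecules, and at 118 CPM in tag 2, from 14 molecules. Macrophages had 77.0, 109 and 80.4 CPM in tags 3, 4 and 2, and S100a8-high neutrophils 594, 601 and 423 CPM. Monocytes and macrophages overlapped, and neutrophils lay above both. Cd33, a related Siglec, stood at 444, 335, 424 and 287 CPM in monocytes of tags 3, 4, 1 and 2 and 306, 408, 265 and 121 CPM in macrophages, and was not called.

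Some of the macrophages also held Ccr2. Of them, 51 and 12 in tags 3 and 4 and 33 and 10 in tags 1 and 2 held at least 2 Ccr2 molecules. Chil3 stood at 341, 370.1, 30.2 and 59.7 CPM in these Ccr2-positive macrophages of tags 3, 4, 1 and 2, against 8.12, 0, 6.41 and 151.5 CPM in macrophages with 0 or 1 Ccr2 molecule, of which tag 4 had only 4 cells. It was thus higher in the Ccr2-positive macrophages of tags 3, 4 and 1 and lower in those of tag 2. Both kinds of macrophage lay under the monocytes of every tag for Chil3.

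Against the 47 and 8 dendritic cells of tags 3 and 4 and the 6 and 8 of tags 1 and 2, the monocytes stood out by chemokines, interleukin 1 and fibronectin. Of 267 measured genes, 25 (9.36%) were at least 2-fold higher in each tag and 31 (11.6%) at least 2-fold lower, 21% in all, and the median log2 ratio was -0.50. TMM scaling shifted that median by 0.31 and gave 36 genes higher and 24 lower, and with dendritic cells of at least 1 Flt3 molecule 13 genes were higher, 11 of them among the 25. Without the members holding markers of other cells 26 were higher and 33 lower, and without those holding epithelial markers 25 and 32. The dendritic cells of tag 1 also had Lgals1 at 116295 CPM, against at most 13873 CPM in those of the other tags.

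Of 12 measured chemokines, 5 were higher in monocytes than in dendritic cells and 1 was lower (median 1.66). Ccl2, the ligand of CCR2, stood at 4811.2, 3320, 3474 and 4318 CPM in monocytes of tags 3, 4, 1 and 2 and 171, 50.6, 0 and 57.9 CPM in dendritic cells. Cxcl2, a neutrophil-attracting ligand of CXCR2, stood at 67498, 74088, 77148 and 84195 CPM in monocytes and 16540, 12246, 2429 and 16958 CPM in dendritic cells (mean log2 ratio 2.98). Cxcl1 (5.02), Cxcl10 (3.61) and Ccl9 (1.77) were the others, and Ccl17 was lower (-4.13). Every tag's monocytes lay above every tag's dendritic cells for Ccl2 and Cxcl2. With dendritic cells of at least 1 Flt3 molecule, Ccl2, Cxcl2, Cxcl10 and Ccl17 were no longer called, while Cxcl1 and Ccl9 were.

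Of 11 inflammatory cytokines, Il1a, Il1b, Il6 and Il10 were higher and none was lower (median 1.72). Il1a stood at 12249, 10830, 12066 and 11180 CPM in monocytes of tags 3, 4, 1 and 2, against 1553, 101, 249.2 and 1215 CPM in dendritic cells. Fn1, fibronectin, stood at 15228, 22523, 16078 and 13437 CPM in monocytes and 482, 810, 3924 and 752 CPM in dendritic cells, a mean log2 ratio of 3.99, whereas macrophages, at 18997, 20809, 15906 and 14054 CPM, overlapped the monocytes. Thbs1 (3.67), Chil3 (3.86), the detoxifying enzyme gene Mgst1 (3.24) and F13a1 (2.99) were also higher. Il10 and Chil3 lost the call with dendritic cells of at least 1 Flt3 molecule, Il1b with monocytes of at least 3 Ccr2 molecules and Il6 without the members holding epithelial markers. On the lower side stood Ccr7, the receptor that guides dendritic cells to lymph nodes (-7.45), Cd7 (-6.76), Btla (-5.99), Stat4 (-5.39), Kit (-5.37) and Blnk (-5.23). Irf8, a transcription factor of dendritic cells and monocytes, stood at 1539, 1027, 1116 and 1834 CPM in monocytes and 14183, 10222, 5295 and 7293 CPM in dendritic cells (-2.69). None of the 4 class II genes outside the dendritic gate was called (median -1.57).

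Cxcl3, another CXCR2 ligand, measured in tags 3, 4 and 2, stood at 11987, 9780 and 15811.3 CPM in monocytes, against 5877, 5478 and 3498 CPM in macrophages. The 120 bases before the start of each of the 3 genes are shown because Cxcl1 was called between the pools, as described below, while Cxcl2 was under 1.5-fold between its nearest tags. They are from RefSeq on GRCm38.p6, on the gene's strand, 5′ to 3′, at chr5:90891125-90891244 (+) for Cxcl1, chr5:90903779-90903898 (+) for Cxcl2 and chr5:90785981-90786100 (+) for Cxcl3, with letters that match the NF-kappaB motif, GGGA, any base and TTTCC, in capitals:
Cxcl1: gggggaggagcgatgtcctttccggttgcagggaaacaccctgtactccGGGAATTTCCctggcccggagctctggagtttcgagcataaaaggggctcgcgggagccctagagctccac
Cxcl2: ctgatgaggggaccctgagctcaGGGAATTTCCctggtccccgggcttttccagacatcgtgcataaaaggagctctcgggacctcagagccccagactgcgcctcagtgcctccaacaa
Cxcl3: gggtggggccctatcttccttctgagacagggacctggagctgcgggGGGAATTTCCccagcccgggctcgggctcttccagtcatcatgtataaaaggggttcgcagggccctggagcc
The match begins 71 bases before the start in Cxcl1, 97 in Cxcl2 and 73 in Cxcl3. Searched on both strands, the motif occurs in 58 of 32851 windows of the same length before gene starts (0.177%). A match describes the letters and says nothing of binding.

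Between the pools few genes of the monocytes separated. Calls required that the lower tag of the higher pool exceed the higher tag of the lower pool by at least 1.5-fold. Of 239 measured genes, 4 (1.67%) were higher under anti-PD-1 and 8 (3.35%) were lower, and for 89 (37.2%) the tags of the pools did not overlap at any distance. The median log2 ratio was -0.08. TMM scaling shifted it by 0.12 and gave 8 genes higher and 6 lower, and a denominator without S100a8 and Fth1 gave 7 higher and 6 lower. Without the members holding markers of other cells 5 were higher and 6 lower, and without those holding epithelial markers 5 and 8. The latter left tag 1 unfiltered, so the pools were not filtered alike. Leaving out 1 tag left fewer values to separate and gave 11 higher and 19 lower without tag 1, 19 and 18 without tag 2, 10 and 26 without tag 3, and 22 and 14 without tag 4.

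Fth1, the ferritin heavy chain that stores iron, was higher in the anti-PD-1 pool, at 132723 and 143397 CPM in tags 3 and 4, against 85227 and 85927 CPM in tags 1 and 2 (log2 ratio 0.69). Its nearest tags lay 1.54-fold apart, just over the requirement, and it was no longer called when the 5% of members with most molecules or those holding epithelial markers were left out, or when each cell counted equally. With at least 1 Ccr2 molecule Fth1 was not called either. Bin2 stood at 764 and 811 CPM in tags 3 and 4 and 429 and 448 CPM in tags 1 and 2 (0.85). Atf6b, a stress-responsive transcription factor, stood at 424 and 461 CPM in tags 3 and 4 and 239 and 245 CPM in tags 1 and 2 (0.87). Ccr7 stood at 64.6 and 74.4 CPM in tags 3 and 4 and 29.9 and 25.4 CPM in tags 1 and 2 (1.33), from 42 molecules in all, and fell under the minimum of 30 without tag 3. Dendritic cells carried far more Ccr7 than monocytes, at 18340, 1214, 9468 and 16264 CPM in tags 3, 4, 1 and 2. The part of stray dendritic molecules in the Ccr7 difference between the pools was not tested.

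Il3ra, the alpha chain of the interleukin 3 receptor, showed the largest ratio. It stood at 8.43 and 14.9 CPM in tags 3 and 4, from 3 and 2 molecules, against 120 and 135 CPM in tags 1 and 2, from 24 and 16 molecules (log2 ratio -3.45). Macrophages showed the same split, at 9.17 and 13.6 CPM in tags 3 and 4 and 118 and 201 CPM in tags 1 and 2, as did neutrophils, at 0.85 and 2.30 CPM against 14.2 and 8.64 CPM. Without tag 1 or tag 2, Il3ra fell under the minimum of 30 molecules in monocytes and had no call. Fth1 in macrophages stood at 128533 and 132656 CPM in tags 3 and 4 and 81805 and 95068 CPM in tags 1 and 2, and in neutrophils at 181922 and 173112 CPM against 155201 and 146649 CPM. Atf6b, Bin2, Pcna and H2-Ab1 likewise kept their order of pools in macrophages and in neutrophils. These 6 genes thus separated the cartridges in macrophages and neutrophils as well as in monocytes. In dendritic cells Il3ra, Fth1 and Pcna kept the order, and Atf6b, Bin2 and H2-Ab1 overlapped. Cxcl9 and Cd72, described below, also kept their order of pools in macrophages. The share of all genes that separate in other cells was not counted, while in monocytes it was 37.2%.

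Class II genes were lower in monocytes of the anti-PD-1 pool for 2 of 6 measured members, with a list median of -0.75. H2-Ab1, a class II beta chain, stood at 104 and 112 CPM in tags 3 and 4 (exact Poisson 95% intervals 73.2 to 143 and 62.5 to 184 CPM), against 324 and 448 CPM in tags 1 and 2 (250.01 to 413 and 336 to 586 CPM), a log2 ratio of -1.84. In macrophages it stood at 262 and 299.02 CPM in tags 3 and 4 and 474 and 392 CPM in tags 1 and 2. H2-DMb2 stood at 50.6 and 37.2 CPM in monocytes of tags 3 and 4 and 184 and 93.0 CPM in those of tags 1 and 2 (-1.66), and lost the call without the members holding epithelial markers and with each cell counted equally. The invariant chain gene Cd74, at 2224 and 3156 CPM in tags 3 and 4 and 4266 and 5831 CPM in tags 1 and 2, and H2-Aa, at 18863 and 25463 CPM against 28866 and 37648 CPM, did not overlap but stayed under 1.5-fold between the nearest tags. H2-Eb1 and H2-DMa overlapped. Other cells did not all share this order. Cd74 ran the other way in macrophages, at 8995 and 11417 CPM in tags 3 and 4 and 6943 and 5348 CPM in tags 1 and 2. In dendritic cells H2-Aa was also higher in the anti-PD-1 pool, at 136252 and 147860 CPM against 86396 and 122352 CPM. H2-Eb1 and Cd74 had the same order there, and H2-Ab1 overlapped.

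Cxcl1 stood at 10047 and 6319 CPM in tags 3 and 4, against 20688 and 21186 CPM in tags 1 and 2, a log2 ratio of -1.36, and the nearest tags lay 2.06-fold apart. The call was lost when the 5% of members with most molecules were left out. Macrophages overlapped between the pools for Cxcl1, at 14220 and 6592 CPM in tags 3 and 4 and 20450 and 10535 CPM in tags 1 and 2. Cxcl9, a CXCR3 ligand induced by interferon gamma, stood at 531 and 320 CPM in tags 3 and 4 and 1002 and 921 CPM in tags 1 and 2 (-1.18), with 26.4% of its molecules in 1 cell. Cxcl9 lost the call without the members holding epithelial markers, with at least 3 Ccr2 molecules and with each cell counted equally. It was also lost with an S100a8 share under 0.05, without shared cell indices and at 2-fold. Cxcl1 and Cxcl9 were the 2 of 11 measured chemokines that were called, both lower in the anti-PD-1 pool (list median -0.19). Ccl9 overlapped. Cxcl2, whose monocyte levels are given above, was lower in tags 3 and 4 than in tags 1 and 2 without overlap, with its nearest tags 1.04-fold apart, and Ccl3, at 10600 and 8872 CPM in tags 3 and 4 and 13167 and 18583 CPM in tags 1 and 2, likewise did not overlap but was under 1.5-fold between its nearest tags.

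Pcna, a replication factor, stood at 1000 and 968 CPM in tags 3 and 4, against 1565 and 1935 CPM in tags 1 and 2 (log2 ratio -0.83), and was the 1 called gene of 6 for proliferation. Mki67, at 160 and 387 CPM in tags 3 and 4 and 159 and 465 CPM in tags 1 and 2, and Top2a, at 365 and 551 CPM against 678 and 355 CPM, overlapped. Pcna was no longer called under TMM scaling, with each cell counted equally, or without the members that held markers of other cells. It was also lost with S100a8 and Fth1 out of the denominator and at 2-fold. Il12rb2, an interleukin 12 receptor chain (-0.75), rested on 40 molecules and lost its call in most of the alternatives, among them TMM scaling, a limit of no C1q, at least 1 or 3 Ccr2 molecules, each cell counted equally, without the members holding markers of other cells or epithelial markers, and without tag 1 or tag 3. Cd72 (-3.17) had 55.8% of its molecules in 1 cell.

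None of 10 inflammatory cytokines (median -0.47), 11 suppressive genes (-0.01), 9 pattern recognition genes (-0.04), 11 immediate early and NF-kappaB genes (-0.08), 6 costimulation and checkpoint genes (-0.17), 4 Fc and inhibitory receptors (0.09) and 7 further monocyte genes (-0.13) was called between the pools. Il1rn stood at 8033 and 6312 CPM in tags 3 and 4 and 10097 and 9076 CPM in tags 1 and 2, and Tnf at 3525 and 4317 CPM against 1954 and 3938 CPM. Irf7, a factor induced by type I interferon, stood at 3084 and 3200 CPM in tags 3 and 4 and 2108 and 1825 CPM in tags 1 and 2; its nearest tags lay 1.46-fold apart, just short of the requirement, and it was called higher under TMM scaling. Tnf and Irf7 were called higher without the members holding epithelial markers. Of 5 interferon response genes Cxcl9 alone was called (list median 0.07).

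**Figure D3:**
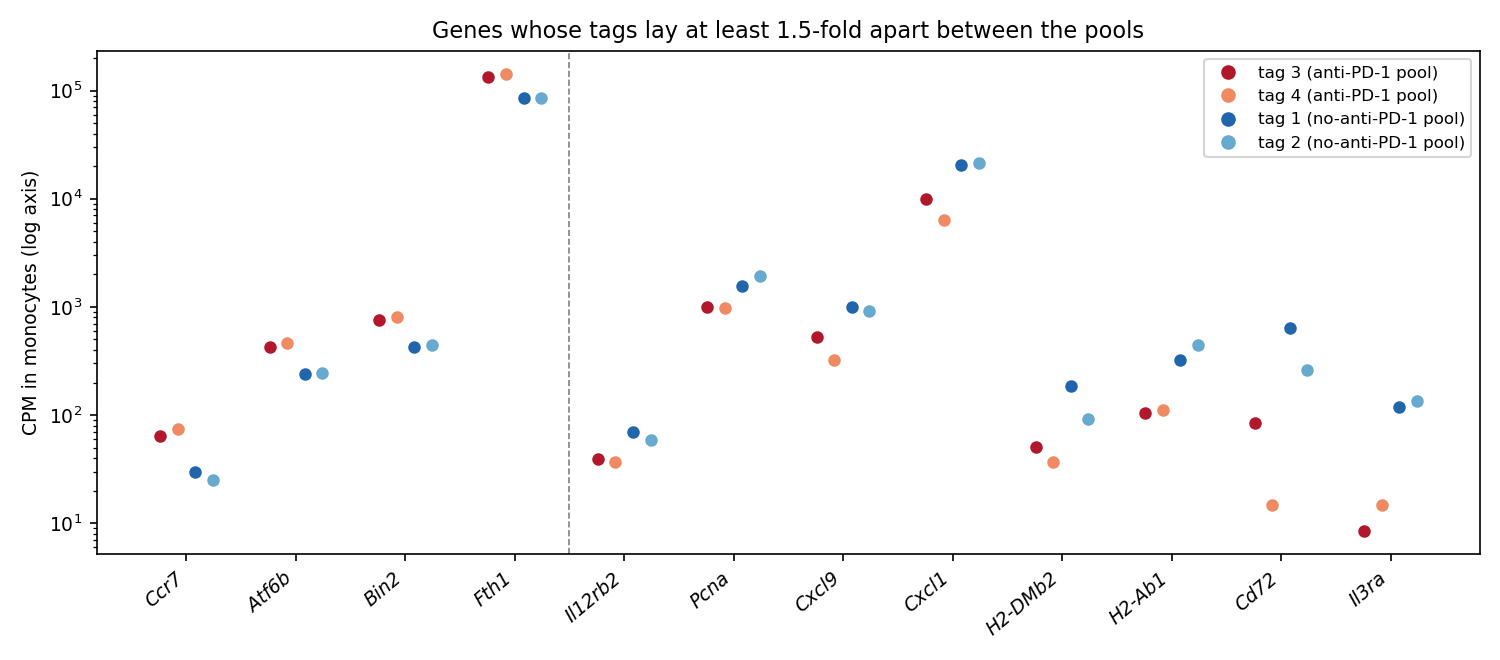
Levels in monocytes, in CPM on a log axis, of the 12 genes called between the pools, each point 1 tag, with genes higher in the anti-PD-1 pool left of the dashed line and lower ones right of it. Il3ra and Cd72 show the widest gaps, and Fth1 is the most abundant of the 12.

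Single genes varied widely from monocyte to monocyte. With each cell thinned to 500 molecules, which kept 300 cells, the variance-to-mean ratio was 40.5 for Spp1, 39.0 for Arg1, 31.8 for H2-Aa, 29.1 for Lyz2, 28.6 for Cxcl2 and 20 for Cxcl1, against 15.4 for the more abundant Fth1; this ratio tends to rise with the level of a gene. Spp1 was seen in 40.3% of the thinned cells, Arg1 in 28.7%, H2-Aa in 54.0%, Cxcl1 in 44.0% and Mmp12 in 22.0%, while Fth1 was seen in 100%. Ccl5, at 37.8, had 31.5% of its molecules in 1 cell.

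The share of a monocyte's molecules from class II genes ran from 0 to 29.7%. Its median was 0.424 and 1.30% in tags 3 and 4 and 1.11 and 0.519% in tags 1 and 2, and 31 and 17 monocytes of tags 3 and 4 (21.8 and 34.7%), against 20 and 16 of tags 1 and 2 (28.2 and 36.4%), lay over 5%. A share under 1% was found in 83 of 142 and 23 of 49 monocytes of tags 3 and 4, against 35 of 71 and 23 of 44 of tags 1 and 2, and the pools overlapped. The promoters of H2-Aa and H2-Eb1, the class II genes with most molecules, are shown for the Y box, a conserved element of class II promoters, here the letters CTGATTGG in capitals. The 120 bases before the start are from RefSeq on GRCm38.p6, on the gene's strand, 5′ to 3′, at chr17:34287824-34287943 (-) for H2-Aa and chr17:34305747-34305866 (+) for H2-Eb1:
H2-Aa: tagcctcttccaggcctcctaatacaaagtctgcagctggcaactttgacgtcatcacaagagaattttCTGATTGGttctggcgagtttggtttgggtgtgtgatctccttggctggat
H2-Eb1: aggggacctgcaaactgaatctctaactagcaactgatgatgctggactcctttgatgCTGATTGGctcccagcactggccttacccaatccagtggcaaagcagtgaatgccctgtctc
The match begins 51 bases before the start in H2-Aa and 62 in H2-Eb1, and on both strands these letters occur in 934 of 32851 windows of the same length (2.84%). A match describes the letters only.

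**Figure D4:**
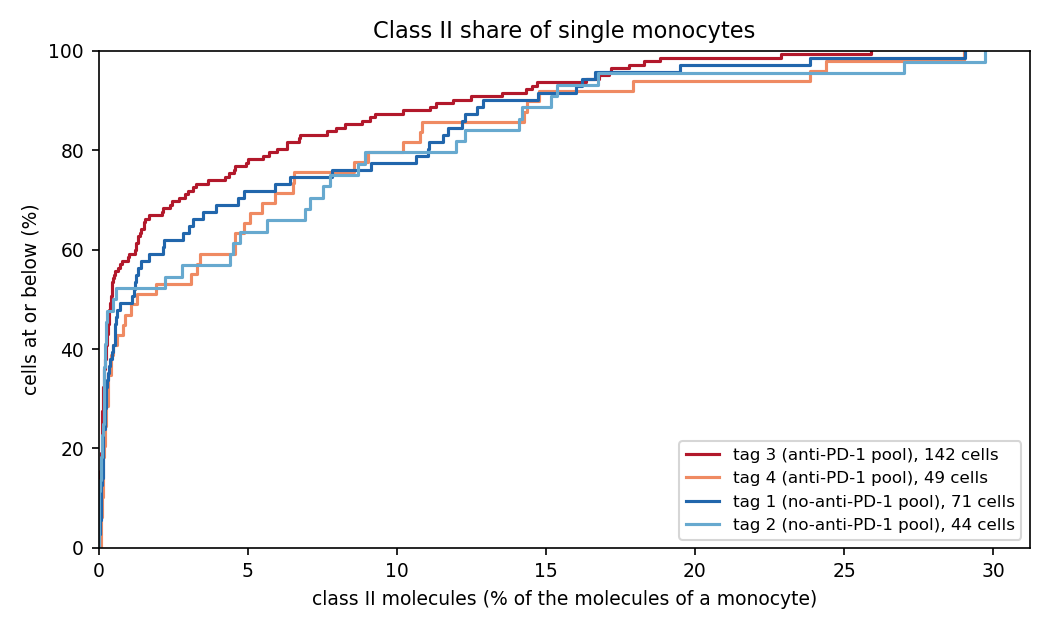
Cumulative percent of monocytes (vertical axis) at or below a given class II share, in percent of the cell's molecules (horizontal axis), 1 step line per tag, for tags 3 and 4 of the anti-PD-1 pool and tags 1 and 2 of the no-anti-PD-1 pool. The lines climb steeply near 0 and then flatten, and the highest cell lies at 29.7%.

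To see which genes go along with class II, the monocytes of each tag were split at the tag's median class II share into 71, 24, 35 and 22 class II-high cells and 71, 25, 36 and 22 class II-low cells in tags 3, 4, 1 and 2. Class II genes took 5.41, 8.04, 8.33 and 10.4% of molecules in the class II-high cells of tags 3, 4, 1 and 2 and 0.142, 0.374, 0.309 and 0.138% in the class II-low cells, which is what the split used. Median depth was 1941, 2257.5, 2563 and 2910.5 molecules in class II-high cells and 2067, 2553, 2112.5 and 2222 in class II-low cells. Outside the class II and rule genes, 4 of 233 measured genes (1.72%) were at least 1.5-fold higher in class II-high cells in each tag and 7 (3%) at least 1.5-fold lower, 4.72% in all. The median log2 ratio was -0.18, and TMM scaling shifted it by 0.11 and gave 5 higher and 5 lower.

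Class II-high cells had more of Cxcl16, Itgax and Cd63. Cxcl16, a membrane-bound chemokine for CXCR6, stood at 1981, 2999, 3335 and 3630 CPM in class II-high cells of tags 3, 4, 1 and 2, against 758, 960, 1086 and 1091 CPM in class II-low cells (mean log2 ratio 1.60). Itgax, the integrin CD11c, stood at 1267, 2024, 1616 and 1951 CPM in class II-high cells and 422, 780, 656 and 632 CPM in class II-low cells (1.47). Neither gene overlapped between the 2 kinds of cell. Cd63 stood at 5058, 2038, 6633 and 3570 CPM in class II-high cells and 778, 705, 2237 and 1072 CPM in class II-low cells (1.88), and the immediate early gene Fosb had a mean log2 ratio of 1.01. Cd63 and Fosb were no longer called without the members that held markers of other cells or without those holding epithelial markers, while Cxcl16 and Itgax were. With each cell counted equally, Cd63, Fosb and Itgax lost the call and Cxcl16 kept it. Cd63 also lost it with at least 1 or 3 Ccr2 molecules, with a limit of no C1q and without the 5% of members with most molecules.

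Class II-low cells had more of Thbs1 and F13a1. Thbs1 stood at 1751, 990, 2917 and 711 CPM in class II-high cells of tags 3, 4, 1 and 2, against 3878, 4876, 10366 and 4308 CPM in class II-low cells (mean log2 ratio -1.97). The class II-low cells of each tag lay above the class II-high cells of every tag. F13a1 stood at 538, 399, 502 and 545 CPM in class II-high cells and 1979, 1845, 806 and 1206 CPM in class II-low cells (-1.48), and Mgst1 had a mean log2 ratio of -1.42. The F13a1 levels of class II-high cells overlapped those of macrophages. The chemokine Ccl9 (-0.89), Bin2 (-1.12) and Elane, with 56.7% of its molecules in 1 cell, were also lower in class II-high cells.

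Thbs1 and Ccl9 were still called lower without the members that held markers of other cells, and F13a1, Mgst1, Bin2 and Elane were not. Without those holding epithelial markers Thbs1, F13a1, Mgst1 and Bin2 were still called and Ccl9 and Elane were not. Without the 5% of members with most molecules 2 genes were called lower, Thbs1 among them and F13a1 not. F13a1 also lost the call with at least 1 Ccr2 molecule, with each cell counted equally, with each cell thinned to 1000 molecules and at 2-fold. Thbs1 kept its call in each of these. Without tag 1, 8 genes were higher and 14 lower; without tag 2, 6 and 11; without tag 3, 7 and 9; and without tag 4, 10 and 7. Chil3 (-0.88), Lyz2 (-0.62) and Cd14 (-0.68) were on average lower in class II-high cells without reaching 1.5-fold in each tag or being part of the counts, and Clec10a had a mean log2 ratio of 0.55. None of 6 proliferation genes was called (median -0.84), nor any of 11 suppressive genes (-0.09) or 5 interferon response genes (-0.05).

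**Figure D5:**
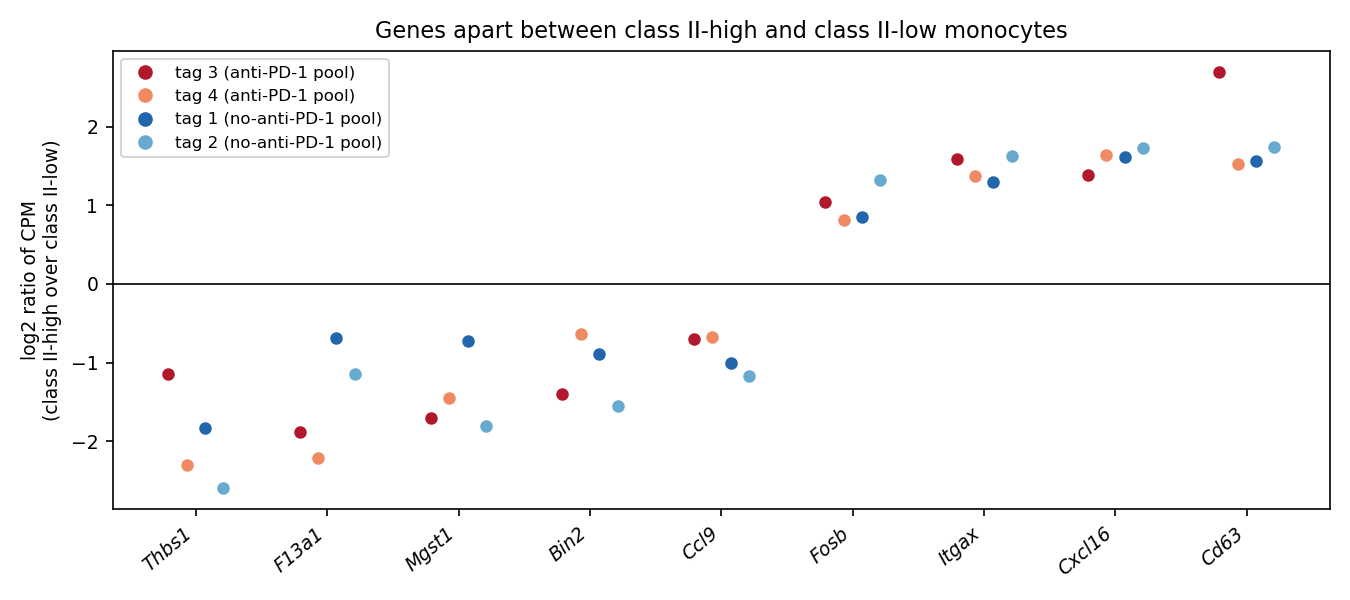
Log2 ratio of CPM, class II-high over class II-low monocytes, for 9 genes called between them, each point 1 tag, with a line at 0. Thbs1 and F13a1 lie below 0 and Cxcl16, Itgax and Cd63 above 0 in each of the 4 tags.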

How the data were processed

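The deposited tables hold counts of molecules per cell and gene, which per the file headers the authors made with version 1.12.1 of the BD Rhapsody Targeted Analysis Pipeline, after distribution-based error correction. The submitters' processing notes name Seurat 3.2.0. The aligner is not given in the sources used here, nor is the build. Columns of samples outside the series numbered 0. No cell filter was added and doublets were not removed. The members and gene lists were chosen with earlier results of these data known. Molecules were summed per tag and cell type over the 396 shared genes and expressed as CPM; in ratios a tag without a molecule took a floor of 3 molecules, and a gene needed 30 molecules. Shares carry exact Clopper-Pearson and sums exact Poisson 95% intervals, which cover counting error only. With 1 sample per pool no test was made, and tags are not replicates. Named genes are, per comparison, the 10 called genes with the largest ratio in each direction whose most loaded cell held under 20% of molecules, the 4 most abundant measured members of each list, the markers, and the PD-1 and Siglec genes; values of other genes were chosen after they were seen. The call rules were tested on simulated sums with Poisson counting error and set folds. The simulation held no variation between cells, so it cannot show how reliable the calls are in these data. Alternatives changed the gate, denominator, scaling (TMM in edgeR 4.0.16, R 4.3.3), molecule minimum and fold, and left out each tag. Python 3.11.15, pandas 2.3.3, numpy 2.4.6, scipy 1.17.1 and matplotlib 3.10.9 were used. Tags 3 and 4 held 12416134 and 3074544 shared-gene molecules in 6620 and 1453 cells, and tags 1 and 2 held 5318288 and 2993684 in 2430 and 1515 cells. A gene that the counts of called genes include is not reported here.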

Additional observations from a re-analysis of the deposited data

Results flagged for a closer look

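Cst7, the gene of the protease inhibitor cystatin F, was picked out because its difference between monocytes and C1q-positive macrophages ran in opposite directions in the pools. The log2 ratio of monocytes over macrophages was 1.69 in tag 3 and 2.30 in tag 4 of the anti-PD-1 pool, against -1.16 in tag 1 and -1.47 in tag 2 of the no-anti-PD-1 pool. These ratios rest on 61, 9, 18 and 3 molecules in monocytes of tags 3, 4, 1 and 2 and on 29, 1, 71 and 7 molecules in macrophages of those tags. The difference was not tested. NK cells make Cst7, and the NK list summed to 4755, 119, 74.8 and 1665 CPM in monocytes of tags 3, 4, 1 and 2; its part in the ratios was not tested.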

How the results depend on the processing

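No paired analysis was possible because each pool is 1 sample and the tags carry no shared replicate. Among the called genes picked by ratio or by abundance in a list, none changed direction in the alternatives where it was measured. Direction was not checked for the other called genes. The alternatives named beside a gene are not always all of those in which it lost its call. The monocyte share differed by -0.154 points between the pools over all cells and by 0.921 points over the myeloid gate. Between the pools the 4 genes higher became 10 with Ccr2 of at least 3, 18 with Ccr2 of at least 1, 11, 19, 10 and 22 without tags 1, 2, 3 and 4, 7 without shared cell indices, 8 under TMM scaling, 7 without S100a8 and Fth1 in the denominator, and 1 at 2-fold. The 8 lower became 19, 18, 26 and 14 without tags 1, 2, 3 and 4, 5 at 100 molecules and 4 at 2-fold. Against macrophages the 16 higher became 25 without tag 4, 10 under TMM scaling and 42 at 1.5-fold, and the 12 lower became 20 at 1.5-fold. Against dendritic cells the 25 higher became 13 with Flt3 of at least 1. Between class II-high and class II-low cells the 4 higher became 8, 7 and 10 without tags 1, 3 and 4 and 7 between the outer parts of a split in 3, and the 7 lower became 2 without the 5% of members with most molecules, 14 and 11 without tags 1 and 2, 4 without members holding markers of other cells, and 3 at 2-fold. The alternatives without shared indices, without members holding markers of other cells and without members holding epithelial markers were chosen after seeing the data. The cause was not tested, beyond fewer tags having to separate where one was left out. Of the values of single genes under alternatives, 110 lost a call, 100 gained one and 82 without a call shifted beyond a set limit. The other 4738 kept a call, or stayed uncalled within that limit whatever the sign of the ratio. Il3ra, Ccr7 and Il12rb2 rest on few molecules.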
